A study of Mus musculus with 26 samples.

Results

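The nuclear genome encodes most subunits of the oxidative phosphorylation system, and these genes are described here by respiratory complex over 5 treatment groups of mouse motor neuron spheroids. Members were the rows of biotype protein_coding whose symbol named a subunit of complexes I to V (Nduf followed by a, b, c, s or v and a number, Sdha to Sdhd, Uqcr, Cox4 to Cox8, Atp5). The rule found 88 rows among 56941 genes, of which 21606 were protein coding, and used no measured value. Atp5o had 2 rows, so the 88 rows carried 87 symbols. A further 18 rows matched the symbols with another biotype and were left out. Complex I had 37 members, complex II 4, complex III 8, complex IV 21 and ATP synthase, often called complex V, 18. Ndufa4, first assigned to complex I, and its paralog Ndufa4l2 were placed with complex IV.

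Complexes I to IV of the inner mitochondrial membrane pass electrons from NADH and succinate to oxygen. Complexes I, III and IV pump protons as they do so, and ATP synthase uses the proton gradient to make ATP. Complexes I, III, IV and V also hold subunits encoded by mitochondrial DNA, whereas complex II is built from nuclear genes alone. Neurons rely on this pathway for the ATP that ion pumping, synaptic transmission and axonal transport consume.

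RNA was sequenced from spheroids made with HBG3, a mouse embryonic stem cell line with a GFP reporter under the promoter of the motor neuron gene HB9, and labelled as heterozygous blastocysts for genotype. The cells were expanded on feeders and differentiated with retinoic acid and a hedgehog pathway agonist, CNTF and GDNF were added at day 5, and spheroids of about day 8 were plated on fibrin. The mechanical groups were an actuated magnetic silicone array, moved at 4 Hz for 30 min daily (n = 4), and the static array, which was never moved (n = 4). The biochemical groups carry the labels high intensity (n = 6), low intensity (n = 6) and control (n = 6). The series describes media conditioned by light-stimulated and unstimulated muscle and does not tie those media to an intensity. It is assumed here that low and high intensity both denote such medium and that controls had none. All groups come from 1 cell line, and the labels do not say whether replicates were separate differentiations, so the p values measure only the spread between these libraries. In bulk RNA, fewer cells of a type and less RNA per cell cannot be told apart.

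Tests used the 21 libraries with at least 1000000 counts on protein-coding genes, here called the deeper libraries: 4 actuated (1 to 4), 3 static (1, 2 and 4), 4 high intensity (1, 2, 3 and 6), 5 low intensity (1 to 5) and 5 control (1, 2, 3, 5 and 6). They held 1551334 to 13162635 counts, of which 12425 to 124631 fell on members. The array libraries were deeper (7269276 to 13162635 counts) than the biochemical ones (1551334 to 3971348), so depth and arm cannot be told apart. Control replicate 4 had 77.5% of its counts on cytosolic rRNA genes, and static-array replicate 3, high-intensity replicates 4 and 5 and low-intensity replicate 6 (1536 counts) were shallow. Pan-neuronal markers summed to between 2103 and 3266 CPM in every deeper library (CPM is the count scaled to library size with TMM factors) and the 8 motor neuron markers to between 70.5 and 162 CPM. Of the 8 motor neuron markers 6 were tested, and Isl2 was among those too low to test. All 4 pluripotency markers were also too low to test.

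Promoters of the subunit genes were read from RefSeq (GRCm38.p6), in windows of 300 bases that lie mostly upstream of the annotated start, for 69 of the 88 members (74 windows). Factors with a textbook role in this gene set are NRF1, the ETS protein GABP and YY1, and their core words were searched on both strands. The NRF1 word GCGCATGCG was in 10.8% of member windows, against 3.39% of the windows of all genes tested and 1.75% of all windows in the table. The YY1 word AAGATGGCG was in 9.46%, against 2.76% and 1.40%. The ETS word ACCGGAAGT was in 1.35%, against 2.14% and 1.10%. Shorter words inside these were searched too. The NRF1 word GCATGCG was in 14.9% of member windows and 6.10% of those of all genes tested. For the YY1 word AAGATGG the shares were 14.9% and 6.71%. For the ETS word CCGGAAG they were 23.0% and 16.3%. At least 1 of the shorter words was in 43.2% of member windows and 26.2% of those of all genes tested. The word counts are a description with no test, a match is not a bound site, and the 2 strands of the NRF1 word overlap because it is nearly its own reverse complement.

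For each complex, 1 window with the most matches to the shorter words is printed (on ties, the member of highest control TPM) from 5′ to 3′ on the gene's strand. Capitals mark the matched words on either strand. An NRF1 word matched on both strands was counted on each, so the Ndufa11 window counted 2 matches. The windows were picked for their matches and do not show a typical member, as 43.2% of member windows held any shorter word.
Ndufa11, chr17:56717512-56717811, plus strand: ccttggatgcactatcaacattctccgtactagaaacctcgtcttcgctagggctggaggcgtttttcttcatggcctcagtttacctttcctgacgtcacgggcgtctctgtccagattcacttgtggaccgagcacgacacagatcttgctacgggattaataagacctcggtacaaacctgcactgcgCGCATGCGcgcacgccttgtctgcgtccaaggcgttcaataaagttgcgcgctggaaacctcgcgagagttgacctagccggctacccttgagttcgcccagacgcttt
Sdhb, chr4:140961021-140961320, plus strand: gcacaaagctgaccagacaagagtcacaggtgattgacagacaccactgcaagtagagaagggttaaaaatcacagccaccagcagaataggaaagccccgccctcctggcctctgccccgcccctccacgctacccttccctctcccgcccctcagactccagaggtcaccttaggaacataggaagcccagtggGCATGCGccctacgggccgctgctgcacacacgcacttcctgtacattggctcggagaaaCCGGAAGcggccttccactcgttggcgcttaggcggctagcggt
Uqcr11, chr10:80406772-80407071, minus strand: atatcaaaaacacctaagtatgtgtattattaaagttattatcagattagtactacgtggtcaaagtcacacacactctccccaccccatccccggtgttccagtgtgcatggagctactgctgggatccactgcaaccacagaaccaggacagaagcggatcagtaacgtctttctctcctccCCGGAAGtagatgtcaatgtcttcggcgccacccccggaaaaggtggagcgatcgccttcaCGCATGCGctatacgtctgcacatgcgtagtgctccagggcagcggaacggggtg
Cox6a1, chr5:115348909-115349208, minus strand: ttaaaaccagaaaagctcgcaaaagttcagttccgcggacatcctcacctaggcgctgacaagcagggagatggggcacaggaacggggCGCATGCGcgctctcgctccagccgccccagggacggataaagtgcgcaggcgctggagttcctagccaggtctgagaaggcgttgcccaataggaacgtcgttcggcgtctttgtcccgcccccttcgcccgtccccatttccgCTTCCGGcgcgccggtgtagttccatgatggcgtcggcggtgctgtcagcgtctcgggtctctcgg
Atp5j, chr16:84834927-84835226, minus strand: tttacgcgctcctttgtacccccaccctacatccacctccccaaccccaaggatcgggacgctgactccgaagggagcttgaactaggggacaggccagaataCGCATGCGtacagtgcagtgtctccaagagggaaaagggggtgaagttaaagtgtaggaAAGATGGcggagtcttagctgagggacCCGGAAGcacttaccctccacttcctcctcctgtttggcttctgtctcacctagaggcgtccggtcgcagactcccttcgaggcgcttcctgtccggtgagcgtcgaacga
The Atp5j window, of a peripheral stalk subunit of ATP synthase, holds words of all 3 factors, while the Ndufa11 window, of a membrane-arm subunit of complex I, holds the NRF1 word alone.

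Subunit genes were among the more abundant transcripts of the spheroids. Of the 88 members, 81 passed the low-count filter and were tested: 36 of complex I, 4 of II, 8 of III, 16 of IV and 17 of V. The median control level of these 81 was 84.1 TPM (a level corrected for transcript length), against 7.48 TPM for all 14730 genes tested. Of the 81, 79 lay above that overall median and 60 were in the top 10% of genes tested. A member that failed the filter is low by construction, so these levels describe the tested members and not all 88.

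**Figure D1:**
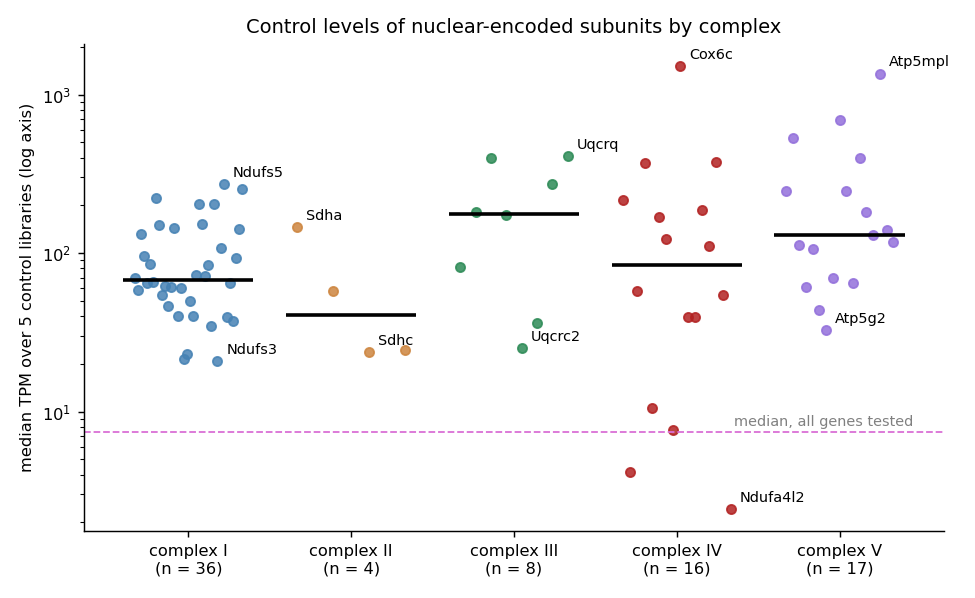
Control level of each of the 81 tested subunit genes, as the median TPM over 5 control libraries on a log axis, by respiratory complex; short lines are the medians of the complexes and the dashed line is the median of all genes tested (7.48 TPM). Most members lie far above the dashed line, from Cox6c at 1513 TPM down to Ndufa4l2 at 2.42 TPM.

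Levels within a complex spread over more than an order of magnitude in controls, except in complex II. In complex I the highest was Ndufs5, an accessory subunit, at 273 TPM and the lowest Ndufs3, a core subunit of the peripheral arm, at 20.8 TPM. The 7 nuclear-encoded core subunits, which carry the flavin and iron-sulfur clusters, had a median of 65.0 TPM, close to the 69.3 TPM of the 29 accessory subunits. In complex II the flavin subunit Sdha stood at 146 TPM, the iron-sulfur subunit Sdhb at 57.4 TPM and the membrane anchor Sdhc, the lowest, at 23.7 TPM. Subunits that are present once per complex were thus listed at unequal transcript levels.

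In complex III the small subunit Uqcrq was highest at 409 TPM and the core protein Uqcrc2 lowest at 25.03 TPM, although its partner Uqcrc1 reached 174 TPM. In complex IV the order ran from Cox6c at 1513 TPM, through Cox8a (376 TPM) and Cox5b (369 TPM), to Ndufa4l2 at 2.42 TPM. In ATP synthase Atp5mpl, a small membrane subunit, was highest at 1356 TPM, and the c-ring gene Atp5g2 lowest at 32.8 TPM. The catalytic beta subunit Atp5b was at 535 TPM and the alpha subunit Atp5a1 at 245 TPM. Ndufa4l2, Cox4i2 and Cox6b2 had the widest spread among controls of the tested members (CV 113%, 75.4% and 93.7%), and Atp5a1 the narrowest (6.29%). The median CV over the 5 controls was 25.1% for the 81 members and 33.7% for all genes tested. Among the 6158 genes tested at the control CPM of the middle 80% of members (22.6 to 186 CPM), the median was 21.9%.

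Subunits with paired tissue isoforms used the general form in every group. Cox4i1 made up a mean of 98.4% to 99.6% of the TPM of the Cox4i1 and Cox4i2 pair, Cox6a1 99.4% to 99.9% of its pair with the heart and muscle form Cox6a2, and Cox7a2 92.7% to 99.2% of its pair with the muscle form Cox7a1. Ndufa4 made up 93.1% to 99.0% of its pair with Ndufa4l2, a paralog known to be induced in hypoxia. Cox6b2, a testis form, had 5.28% to 11.6% of its pair. The low forms rest on few counts: Cox6a2 had 29 and Cox7a1 45 over the 21 deeper libraries, while Cox8b (muscle) and Cox8c (testis) had 0 in all 26.

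The ATP synthase c-ring is made of 1 mature protein that 3 genes encode with different import sequences, and the 3 were used in uneven shares. In controls Atp5g3 had 50.1% ± 17.7 (SD, n = 5) of their TPM, Atp5g1 34.3% ± 13.6 and Atp5g2 15.6% ± 8.17. On the actuated array the shares were 54.9% ± 2.17 (n = 4), 29.5% ± 1.06 and 15.6% ± 1.59, and on the static array 52.5% ± 1.50 (n = 3), 32.4% ± 1.25 and 15.1% ± 0.474. The mean order was the same in all 5 groups, and the controls spread most, with Atp5g2 at 1.27% in 1 control library and 21.0% in another. Control libraries were also shallower than array libraries, and the part of depth in this spread was not tested.

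**Figure D2:**
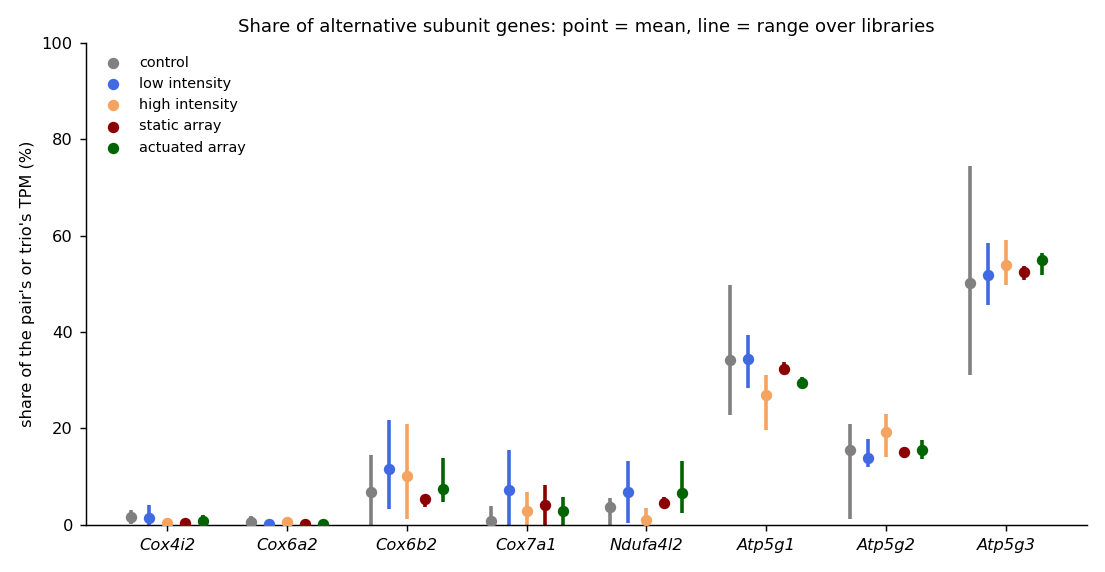
Share of the TPM of a pair (Cox4i1 and Cox4i2, Cox6a1 and Cox6a2, Cox6b1 and Cox6b2, Cox7a2 and Cox7a1, Ndufa4 and Ndufa4l2) or of the 3 c-ring genes that each plotted gene holds, in percent; points are means over the deeper libraries of a group and lines run from the lowest to the highest library. The alternative forms hold at most 21.8% in any library, and Atp5g3 is the largest c-ring share on average in each group.

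The 7 members not tested were Cox6a2, Cox7a1, Cox7b2, Cox8b, Cox8c, Ndufb11b and the second Atp5o row (ENSMUSG00000116933), which had 1 count in all. Reads of Atp5o could be divided between its 2 rows, and Cox5b-ps, at 10.5 TPM in controls, could share reads with Cox5b, so their values are uncertain.

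The summed CPM of the 88 members was 8069 ± 762 (SD, n = 5) in controls, 7749 ± 482 (n = 5) at low intensity, 7131 ± 309 (n = 4) at high intensity, 8738 ± 622 (n = 3) on the static array and 8190 ± 477 (n = 4) on the actuated array. High-intensity libraries lay between 6687 and 7344 CPM and control libraries between 7321 and 9042 CPM, so the groups overlapped. By complex, the high-intensity sums were 2070 ± 99.2 CPM for complex I, 349 ± 24.8 for II, 682 ± 14.4 for III, 1400 ± 76.2 for IV and 2630 ± 146 for V. The control sums were 2356 ± 353, 363 ± 33.6, 820 ± 88.5, 1499 ± 136 and 3031 ± 261 CPM. For complex III the 4 high-intensity libraries (664 to 699 CPM) lay below all 5 controls (740 to 925 CPM), and for complex V (2424 to 2761 CPM) below all 5 controls (2775 to 3427 CPM). No test was made on these sums, and on the TPM scale as deposited the high-intensity sums of all 5 complexes were instead 1.17 to 1.36 times the control sums.

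All genes shifted together between these scales. Protein-coding genes held 24.1% to 44.5% of the TPM in the deeper controls and 40.1% to 66.9% in the other deeper libraries, and on log2(TPM + 1) the median of all genes tested was 0.53 above control at high intensity, 0.64 at low intensity and 0.50 on the static array. Changes below are therefore on the TMM scale, where that median was at most 0.01 from 0, and are given beside it.

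**Figure D3:**
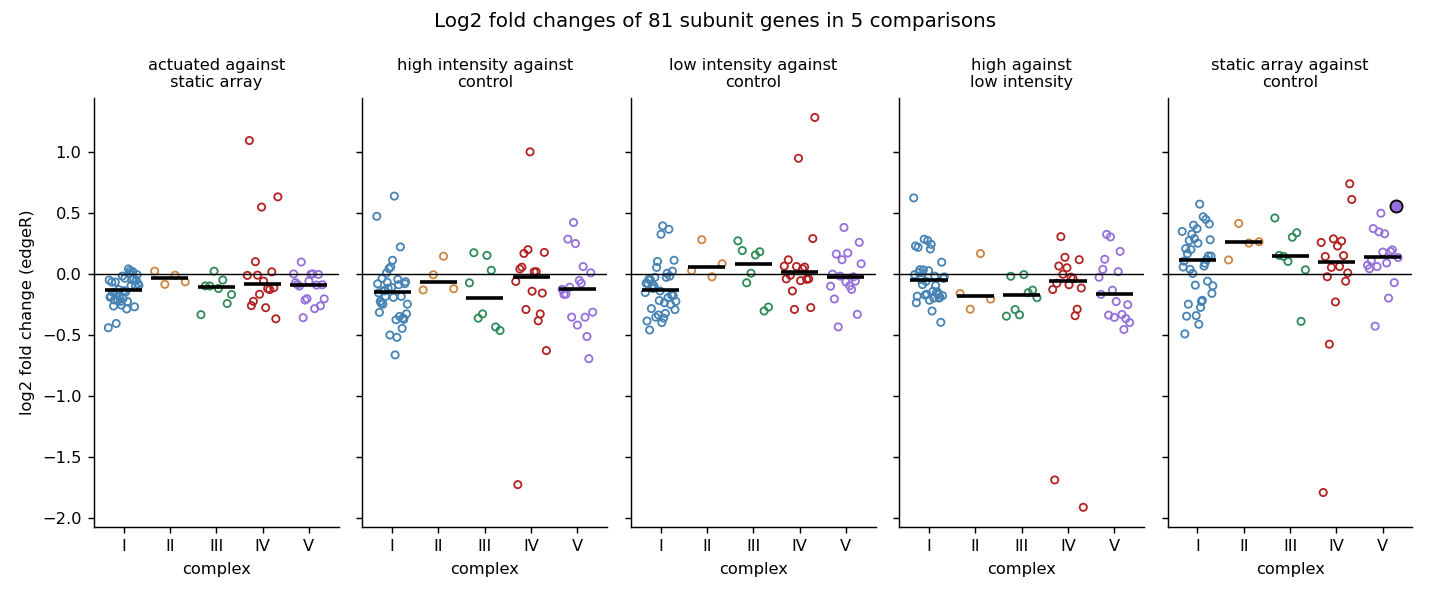
Log2 fold changes (edgeR, TMM scale) of the 81 tested members in 5 comparisons, by complex; lines are the medians of the complexes, and the filled point is the 1 member with an adjusted p under 0.05 (Atp5o, static array against control). The medians of all 5 complexes are below 0 for actuation, for high intensity over control and for high over low intensity, and above 0 for the static array over control; on the TPM scale as deposited the median over all members in the first 2 of these is above 0.

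Whether movement of the array changed the subunit genes was asked with actuated against static arrays. No member was called (edgeR adjusted p under 0.05), as was no gene at all (percentage of all genes called 0). At an unadjusted p under 0.05 there were 0 members, with 0.38% of all genes, and DESeq2 and limma voom also called 0 members. Of the 81 members 67 had a lower value on the actuated array, with a median log2 fold change of -0.10, against 50.1% lower and a median of 0.00 for all genes. By complex the counts were 32 of 36 lower in I, 3 of 4 in II, 7 of 8 in III, 11 of 16 in IV and 14 of 17 in V. On log2(TPM + 1) the members' median was 0.06 beside 0.11 for all genes, still below it. With all 26 libraries it was 0.02 beside -0.02 for all genes, which turns its sign.

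Short transcripts moved in the same way in that comparison. Of the members with a transcript length, 58.8% were under 1000 bases, against 4.52% of all genes tested. The 548 other genes under 1000 bases had a median of -0.11 (69.7% lower), and the 47 short members -0.15. In static array against control the other short genes had a median of 0.17 and the short members 0.15. At high intensity against control they were at 0.01 and -0.11. The part of transcript length in the members' medians was not tested.

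The members of smallest p for actuation were Ndufa4, a subunit of cytochrome c oxidase, and Atp5g1. Ndufa4 was at 30.8, 33.4, 39.7 and 40.8 CPM in the actuated libraries and at 43.0, 49.4 and 47.6 CPM in the static ones. All 4 actuated libraries were below all 3 static ones. The log2 fold change was -0.37 (SE 0.22, adjusted p 1 in edgeR). Atp5g1 was at 36.4, 29.8, 37.1 and 38.3 CPM on actuated and 43.6, 49.4 and 42.9 CPM on static arrays, again without overlap, with a log2 fold change of -0.36 (SE 0.22, adjusted p 1 in edgeR). Ndufa9, an accessory subunit of complex I, was the third member without overlap, all 3 lower on the actuated array and none higher, where 2.23% of all genes were lower and 2.1% higher without overlap.

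The 95% interval of the log2 fold change lay within 2-fold in either direction for 74 of 81 members in this comparison, for 70 at high and 77 at low intensity against control, for 75 in high against low intensity and for 73 in static array against control. The median SE was between 0.18 and 0.20.

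High intensity was compared with control to ask what this medium changed. No member was called (edgeR adjusted p under 0.05; 0.462% of all genes were), while 15 of 81 had an unadjusted p under 0.05, against 15.9% of all genes. DESeq2 called 1 member (Atp5h, lower) and limma voom 0. Of the 15, 14 were lower (7.28% of all genes) and 1, Ndufb7, was higher (8.67%). The median log2 fold change of the members was -0.12, with 57 of 81 lower, against 0.00 and 49.7% for all genes. On log2(TPM + 1) it was 0.49 beside 0.53 for all genes.

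The lower members came from 4 complexes and included Ndufs5, Ndufc1, Ndufb9, Ndufb8 and Ndufv2 in complex I, Uqcrb, Uqcrq and Uqcrc1 in III, Cox7b and Cox6a1 in IV, and Atp5h, Atp5mpl and Atp5pb in V. Complex I had 29 of 36 members on the lower side, complex III 5 of 8, complex IV 8 of 16 and complex V 12 of 17. The medians were -0.15, -0.20, -0.02 and -0.12. For complex II, with 3 of 4 lower, the median was -0.06.

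Atp5h, a peripheral stalk subunit of ATP synthase, had the smallest p. It was at 293, 293, 301 and 289.8 CPM at high intensity and at 405, 289, 481, 430.0 and 361 CPM in controls. The high-intensity libraries lay close together, and control replicate 2 was as low as they were. The log2 fold change was -0.42 (SE 0.12, adjusted p 0.0975 in edgeR), and 0.18 on log2(TPM + 1). Cox7b, a small subunit of complex IV, was at 128, 96.1, 117 and 114 CPM at high intensity and at 156, 170.3, 141, 156 and 119.7 CPM in controls. Only control replicate 6 fell in the high-intensity range, and the log2 fold change was -0.38 (SE 0.12, adjusted p 0.120 in edgeR), and 0.38 on log2(TPM + 1).

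Members with no overlap included Ndufc1 and Uqcrb, both lower, against 1.49% of all genes. None was higher without overlap, against 2.07%. Ndufb7, an accessory subunit at the membrane arm, was at 41.1, 70.9, 69.1 and 56.2 CPM at high intensity and at 32.8, 48.0, 29.6, 34.2 and 44.3 CPM in controls. It overlapped the controls through high-intensity replicate 1, with a log2 fold change of 0.64 (SE 0.21, adjusted p 0.135 in edgeR).

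Catalytic subunits moved little at high intensity. Sdha, the flavin subunit of complex II, had 180.1, 203, 184 and 177 CPM, within the control range of 173 to 231 CPM. Ndufv1, which oxidises NADH in complex I, had 59.5 to 76.0 CPM, within 49.6 to 88.1 CPM in controls, and Ndufs1, the largest core subunit of complex I, 77.7 to 103 CPM against 87.3 to 114 CPM. The Rieske protein Uqcrfs1 had 58.0 to 67.9 CPM, within 43.1 to 80.2 CPM. Cox4i1 had 107 to 150.0 CPM against 119.9 to 151 CPM and Cox5a 29.3 to 38.0 CPM, within 27.6 to 42.3 CPM. Atp5b had 434 to 539 CPM against 509 to 644 CPM and Atp5a1 558 to 663 CPM against 623 to 742 CPM.

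**Figure D4:**
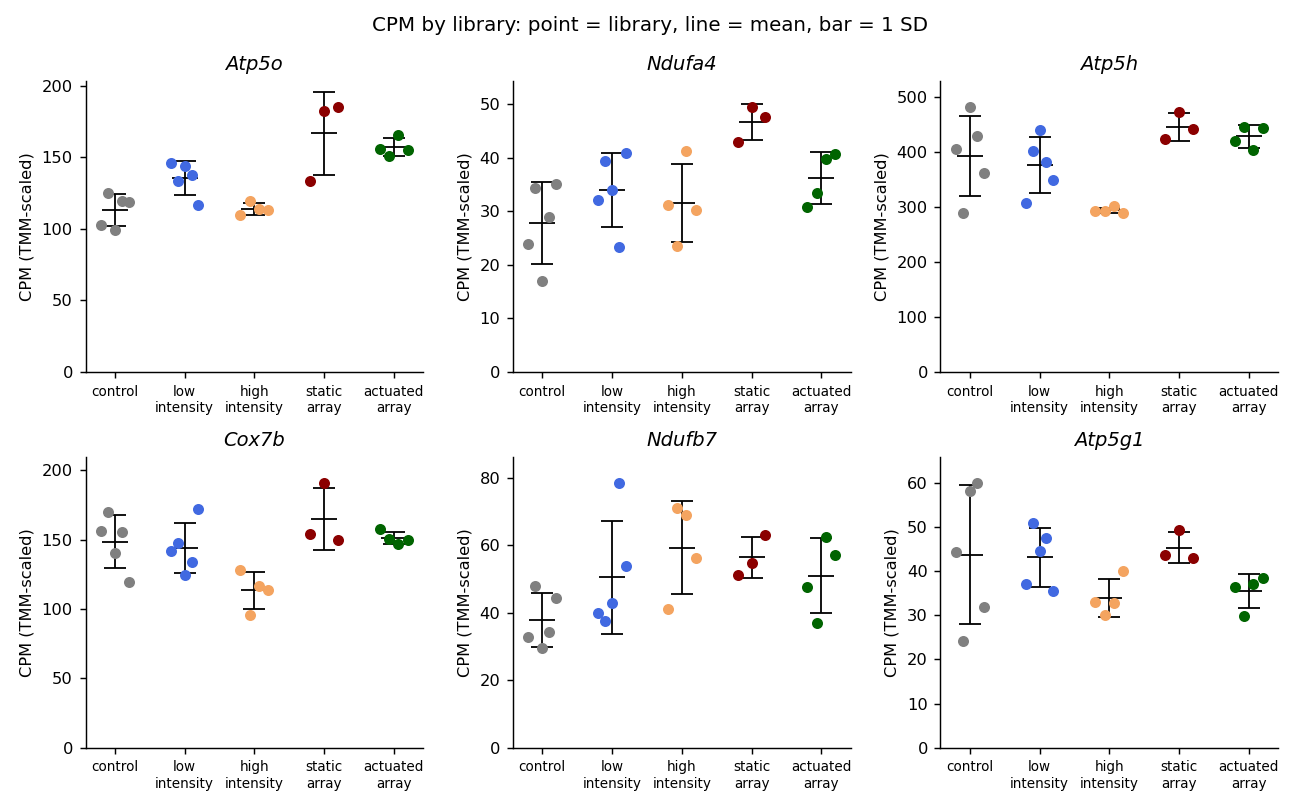
CPM (TMM-scaled) in each deeper library for Atp5o, Ndufa4, Atp5h, Cox7b, Ndufb7 and Atp5g1 in 5 groups; points are libraries, horizontal lines means and bars 1 SD. The 3 static-array libraries of Atp5o (133 to 185 CPM) are above all 5 controls (99.2 to 125 CPM), and the 4 high-intensity libraries of Atp5h lie between 289.8 and 301 CPM.

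Low intensity was compared with the same controls, which both intensity comparisons and the static array share. No member was called (edgeR adjusted p under 0.05; 0.597% of all genes were), and neither DESeq2 nor limma voom called one. At an unadjusted p under 0.05 there were 7 members, against 15.2% of all genes. Of these, 4 were higher (8.57% of all genes) and 3 lower (6.61%). The median log2 fold change was -0.04, with 50 of 81 lower (50.9% of all genes), and on log2(TPM + 1) 0.71 beside 0.64 for all genes, which turns its sign relative to all genes. The unadjusted 7 were Atp5o, Ndufb5, Atp5g3 and Ndufs3 (higher) and Cox6a1, Cox8a and Ndufa11 (lower).

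Atp5o had the smallest p, with 146, 133, 144, 138 and 117 CPM at low intensity against 103, 125, 99.2, 119.8 and 119 CPM in controls. Low-intensity replicate 5 lay among the controls, and the log2 fold change was 0.26 (SE 0.11, adjusted p 0.223 in edgeR). Ndufb5, an accessory subunit of complex I, was at 55.1, 55.8, 54.2, 43.0 and 66.7 CPM against 42.8, 37.1, 47.7, 41.2 and 50.7 CPM, overlapping through replicate 4, with a log2 fold change of 0.33 (SE 0.14, adjusted p 0.246 in edgeR). No member was without overlap in either direction, where 1.28% of all genes were higher and 0.971% lower.

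High against low intensity asked whether the 2 media differed. No member was called (edgeR adjusted p under 0.05), as was no gene at all (percentage called 0), and DESeq2 and limma voom called 0 members. Unadjusted p was under 0.05 for 7 members, against 7.68% of all genes, with 6 of them lower (4.06%) and 1 higher (3.62%). The median was -0.09, with 57 of 81 lower (48.5% of all genes), and all 8 complex III members were on the lower side. On log2(TPM + 1) the members' median was -0.25 beside -0.10 for all genes.

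Atp5h was again first, at the 4 high-intensity values above and at 307, 403, 440.4, 382 and 349 CPM at low intensity, without overlap. Its log2 fold change was -0.35 (SE 0.12, adjusted p 0.477 in edgeR). Cox7b had 142, 148, 125, 134 and 172 CPM at low intensity, and its range touched that of high-intensity replicate 1 (log2 fold change -0.34, SE 0.12, adjusted p 0.531 in edgeR). Atp5mpl and the iron-sulfur core subunit Ndufs7 were also lower without overlap, against 1.35% of all genes.

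The static array was set against the biochemical controls, which differ in the platform as well as in the depth of the libraries. Atp5o was the 1 member called (edgeR adjusted p under 0.05), against 0.713% of all genes. At an unadjusted p under 0.05 there were 10 members, all higher, against 12.6% of all genes, with 6.1% higher and 6.46% lower. DESeq2 called 2 members (Atp5o and Ndufa4, both higher) and limma voom 1 (Atp5o). The median was 0.14, with 60 of 81 higher (49.7% of all genes), and on log2(TPM + 1) 0.76 beside 0.50. With all 26 libraries it was 0.05 beside 0.09 for all genes, which turns its sign relative to all genes.

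Atp5o (ENSMUSG00000022956) encodes the oligomycin sensitivity subunit, which ties the peripheral stalk of ATP synthase to its catalytic head. It was at 133, 182 and 185 CPM on the static array, above each control. It was at 156, 151, 166 and 155 CPM on the actuated array, which shared the platform, and at 109, 119, 114 and 113 CPM at high intensity. The log2 fold change of static array over control was 0.56 (SE 0.12, adjusted p 0.0216 in edgeR), and 1.16 on log2(TPM + 1). The call was lost without static-array replicate 2 (0.51, adjusted p 0.169 in edgeR) or replicate 4 (0.49, adjusted p 0.201 in edgeR), with all 26 libraries (0.40, adjusted p 1 in edgeR), in a fit of the 2 groups alone (0.55, adjusted p 0.178 in edgeR) and after thinning to equal total counts (0.36, adjusted p 0.383 in edgeR). Its promoter window was among those searched and held no match to the shorter words.

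Ndufa4 came second, with static values of 43.0, 49.4 and 47.6 CPM above all 5 controls at 23.9, 34.3, 16.9, 29.0 and 35.1 CPM. The log2 fold change was 0.74 (SE 0.21, adjusted p 0.107 in edgeR). Sdhb, the iron-sulfur subunit of complex II, was at 85.5, 84.6 and 89.5 CPM against 62.1, 38.9, 66.5, 80.5 and 76.5 CPM in controls. Its difference on the log2 scale was 0.42 (SE 0.17, adjusted p 0.284 in edgeR). Besides these 3, Ndufb10, Ndufb7 and Ndufc2 of complex I were higher without overlap, 6 members in all, against 4.52% of all genes. None was lower without overlap, against 3.62%. All 4 complex II members, 7 of 8 in complex III, 14 of 17 in V, 11 of 16 in IV and 24 of 36 in I were on the higher side.

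The difference between the effect of actuation and the effect of high intensity was tested as an interaction. No member was called (edgeR adjusted p under 0.05), as was no gene (percentage called 0), and DESeq2 and limma voom called 0 members. Unadjusted p was under 0.05 for 2 members, against 6.69% of all genes. Both were below 0 (3.73% of all genes) and none above (2.96%): Ndufb7 (-0.79, SE 0.31, adjusted p 0.687 in edgeR) and Ndufa1, an accessory subunit of complex I (-0.91, SE 0.40, adjusted p 0.720 in edgeR). The members' median was 0.05, with 48 of 81 above 0 (49% of all genes), and on log2(TPM + 1) -0.43 beside -0.42. Ndufa1 had 24.5, 30.4, 20.0 and 24.0 CPM at high intensity, 11.8, 22.8, 22.3, 13.1 and 18.8 CPM in controls, 13.4, 11.2, 22.1 and 20.2 CPM on actuated and 17.4, 24.2 and 26.4 CPM on static arrays. All 4 groups overlapped at this low level, and after thinning to equal total counts its interaction was 0.05.

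The inhibitor of ATP synthase, Atpif1 (ENSMUSG00000054428), lies outside the symbol rule. It was at 494, 496, 386 and 459 CPM at high intensity and at 552, 682, 836, 646 and 594 CPM in controls. All 4 high-intensity libraries were below all 5 controls, and the log2 fold change was -0.53 (SE 0.13, adjusted p 0.0601 in edgeR). At low intensity it was at 429, 632, 689.8, 563 and 699 CPM (log2 fold change -0.14, SE 0.12, adjusted p 0.648 in edgeR).

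The mitochondrially encoded subunits of the same complexes had another pattern. Of the 13 genes, 4 were called lower on the static array than in controls (mt-Co1, mt-Cytb, mt-Nd4 and mt-Nd5, edgeR adjusted p under 0.05). Of all genes, 0.713% were called there in either direction. The median log2 fold change of the 13 was -0.97 where that of the nuclear members was 0.14. The log2 fold change of mt-Co1 was -1.55 (SE 0.29, adjusted p 0.00906 in edgeR). At high and low intensity against control 7 of the 13 had an unadjusted p under 0.05 in each, against 15.9% and 15.2% of all genes. The medians of the 13 were -0.55 and -0.51, with 0 called. The ratio of their summed CPM to that of the nuclear members was 2.79 ± 0.840 (SD, n = 5) in controls, 1.95 ± 0.689 (n = 4) at high intensity, 1.89 ± 0.461 (n = 5) at low intensity, 1.32 ± 0.335 (n = 4) on actuated and 1.06 ± 0.112 (n = 3) on static arrays. Mitochondrial rRNA moved in the same order, from 10.4% to 14.7% of all counts in controls to 6.41% to 7.02% on the static array, and its part in the ratio was not tested.

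**Figure D5:**
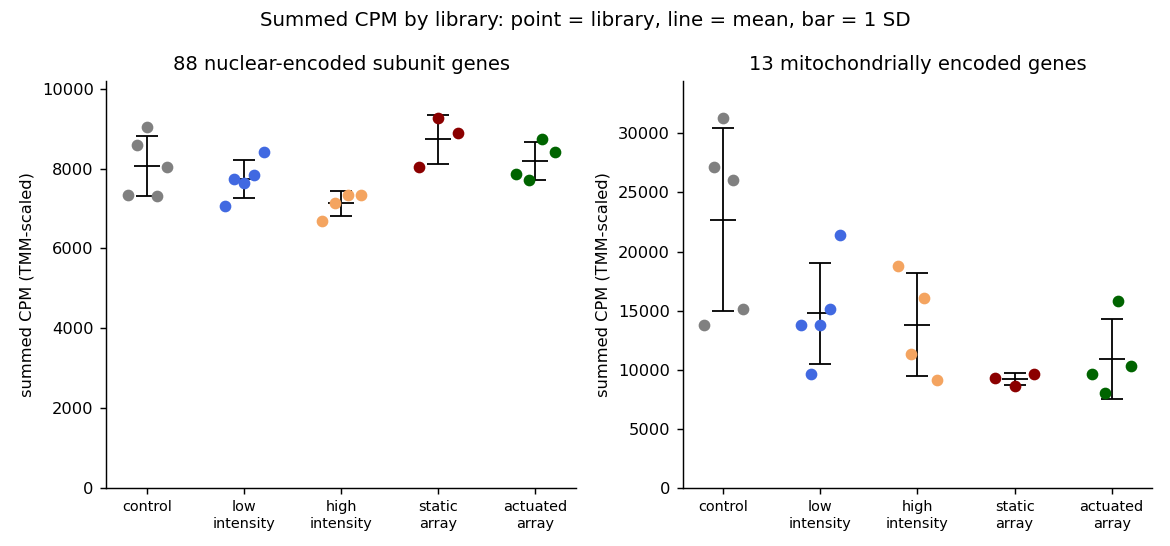
Summed CPM (TMM-scaled) of the 88 nuclear-encoded members and of the 13 mitochondrially encoded respiratory chain genes in each deeper library; points are libraries, lines means and bars 1 SD, and both axes start at 0. The nuclear sums stay between 6687 and 9272 CPM in all 21 libraries, while the mitochondrial sums range from 8004 to 31303 CPM and are lowest on the arrays on average.

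Other gene lists of the pathway had 0 genes called in each comparison (edgeR): 46 assembly factors, 16 genes of the tricarboxylic acid cycle, 12 regulators and 6 further subunits and carriers (Ndufab1, Cyc1, Cycs, Slc25a3, Slc25a4 and Slc25a5). At high intensity against control their medians were -0.19, -0.03, -0.03 and -0.02, with 6, 3, 2 and 1 genes at an unadjusted p under 0.05. On the static array against control they were -0.02, 0.12, 0.02 and 0.09, with 3, 1, 1 and 1. At low intensity against control they were -0.20, 0.01, 0.18 and -0.02, with 8, 1, 3 and 0. For actuation 0 genes of these lists reached an unadjusted p under 0.05, and for high against low intensity 2, 0, 2 and 0 did. The shares of all genes at that threshold were 15.9%, 12.6%, 15.2%, 0.38% and 7.68%, with the comparisons in the order given. Of all genes, 0.462%, 0.713%, 0.597%, 0% and 0% were called. Ppargc1a, a coactivator of mitochondrial biogenesis, was at 73.4 ± 15.0 CPM (SD, n = 5) in controls and 58.1 ± 11.3 CPM (n = 4) at high intensity (log2 fold change -0.34, SE 0.18, adjusted p 0.367 in edgeR). Gabpa, the DNA-binding subunit of the ETS factor GABP, was at 37.5 ± 5.91 CPM (SD, n = 5) in controls and 56.6 ± 11.2 CPM (n = 5) at low intensity (log2 fold change 0.60, SE 0.16, adjusted p 0.0611 in edgeR).

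Glycolytic genes, the other main source of ATP, were set beside the members. All 17 had lower values at high intensity than in controls, with a median of -0.29, 11 at an unadjusted p under 0.05 and 0 called (edgeR). At high against low intensity 16 of 17 were lower (median -0.28, 12 unadjusted, 0 called). Unadjusted p was under 0.05 for 15.9% and 7.68% of all genes in these comparisons. The 17 glycolytic genes summed to 5591 to 6579 CPM at high intensity and 6913 to 7607 CPM in controls, without overlap. In the hypoxia list, of which 7 of 8 genes were tested, Slc2a1, a glucose transporter, rose at low intensity (1.03, SE 0.17, adjusted p 0.00852 in edgeR) and on the static array (1.24, SE 0.18, adjusted p 0.00164 in edgeR) over control.

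Markers of other cells differed from controls in the intensity groups and on the arrays. Summed CPM of the 4 dividing-cell markers was 296 to 868 at high intensity and 164 to 227 in controls, with Mki67 and Top2a called higher (edgeR) and none of the 4 at 0. At low intensity they summed to 190.1 to 559.7 CPM, with a median log2 fold change of 1.37 against 1.30 at high intensity and Top2a called higher. There the progenitor gene Nes was also called higher (1.43, SE 0.33, adjusted p 0.0443 in edgeR) and the neuronal gene Elavl4 lower (-0.59, SE 0.13, adjusted p 0.0370 in edgeR). Of the 5 progenitor markers, 3 were higher and 2 lower at low intensity (median 0.15), and only Nes had an unadjusted p under 0.05 in edgeR. Of the 6 pan-neuronal markers, 5 were lower and 1 higher at low intensity. The 6 fibroblast or feeder markers summed to 800 to 2315 CPM at high intensity and 341 to 875 CPM in controls. All 6 were higher and none was at 0. Unadjusted p was under 0.05 for 3 of the 6, against 15.9% of all genes, and 0 of the 6 were called. The skeletal muscle markers, 3 of 6 tested, summed to 16.3 to 171 CPM against 8.46 to 66.9 CPM in controls, with 1 and 2 of the 6 at 0 in all libraries of the group. The 6 pan-neuronal markers summed to 2103 to 3122 CPM against 3039 to 3254 CPM. On the static array the 4 oligodendrocyte markers summed to 208 to 493.2 CPM against 67.8 to 155 CPM in controls, and the motor neuron gene Slc5a7 was called lower (-1.88, SE 0.31, adjusted p 0.00392 in edgeR). Dividing-cell markers summed to 266 to 408 CPM on the static and 256 to 394 CPM on the actuated array. On the static array all 4 were higher than in controls (median 0.91, 0 called), as were all 5 astrocyte markers (median 0.61, 0 called). Unadjusted p (edgeR) was under 0.05 for 2 and 3 of these, against 12.6% of all genes. Of the 6 fibroblast or feeder markers, 2 were higher and 4 lower there. The part of cell composition in the members' values was not tested.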

How the data were processed

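Bulk RNA-seq of 26 libraries was analysed. The authors' deposited table of estimated counts per gene, and their deposited TPM table, were used as given; fractional counts were rounded to whole numbers. Per the labels' protocols, libraries were made with a SMARTer pico-input kit with rRNA depletion from 4 ng of RNA, with the lowest-yield samples at full volume, and sequenced as 50-base pairs; unique molecular identifiers are not mentioned. The submitters' processing notes name BWA 0.7.12-r1039, bedtools 2.25.0, STAR and Salmon, and the builds mm10, hg19 and GRCm39, without roles.

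The main test was edgeR 4.0.16 (R 4.3.3), quasi-likelihood with TMM and filterByExpr, in 1 model of 5 groups over the 21 libraries with at least 1000000 protein-coding counts. P-values were adjusted by Benjamini-Hochberg over all 14730 genes tested, and a gene was called at an adjusted p under 0.05. DESeq2 1.42.0 and limma 3.58.1 were alternatives, with TPM tested as log2(TPM + 1) or log2(TPM + 0.1). The fitting code was tested on simulated data. Depth was 1551334 to 13162635 counts in the libraries tested, and 3 counts correspond to 0.228 to 1.93 CPM.

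Named members were catalytic subunits, tissue isoforms, the highest and lowest member of each complex, any member called and the 2 of smallest p in each comparison; others, such as those without overlap, were named after their values were seen. Values of some named genes are not reported here. Members, lists, tests and the depth rule were chosen with earlier results of these data known.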

Additional observations from a re-analysis of the deposited data

Results flagged for a closer look

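Dixon's test was run on 164 sets of 4 or 5 library values, 1 for each group and each tested named gene or complex sum. In 10 sets a library was far from the others of its group, and chance gives about 1 in 20. No complex sum was among the 10. In the actuated group, Sdhb was at 94.5 CPM in replicate 3, above 76.1 to 78.4 CPM in the others.

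At high intensity, replicate 1 was low for Cox5a (29.3 CPM, others 36.6 to 38.0) and for Atp5a1 (558 CPM, others 656 to 663). Replicate 2 was low for Atp5mpl (177 CPM, others 207 to 209). Replicate 3 was high for Atp5g3 (70.3 CPM, others 49.2 to 51.9), and replicate 6 was high for Cox4i2 (1.10 CPM, others 0.405 to 0.504).

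At low intensity, replicate 1 was low for Cox6c (338 CPM, others 537 to 593) and high for Ndufs1 (112 CPM, others 91.3 to 95.1). Replicate 5 was high for Atp5mpl (371 CPM, others 215 to 254), and replicate 2 was high for Atp5g2 (22.1 CPM, others 13.9 to 15.7).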

How the results depend on the processing

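The count of members called in static array against control was 0 with all 26 libraries, with only the groups compared, after thinning to the shallowest library and on TPM rescaled by TMM, 2 with DESeq2 (381 of all 14730 genes called) and with no low-count filter (459 of 37248), and 27 on log2(TPM + 1) and on log2(TPM + 0.1) (1091 and 1145 of 14730). It was 0 to 1 when each library was left out in turn, and 0 without static-array replicate 2 or 4. At high intensity against control it was 1 with DESeq2 (467 of all genes), 3 with no low-count filter (700 of 37248) and 11 on both TPM scales (2324 and 2292 of all genes), and at low intensity against control 49 on both (5440 and 5537). With the replicate number as a block, static array against control had 0 members called (Atp5o 0.53, edgeR adjusted p 0.127); same-numbered libraries did not deviate together in each group, so the numbers were not taken as pairs.

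With all 26 libraries the members' median log2 fold change was 0.0195 for actuated against static array, -0.24 for high intensity against control and 0.26 for the interaction. On log2(TPM + 1) and log2(TPM + 0.1) respectively it was 0.0648 and 0.0653 for actuated against static array, 0.49 and 0.50 for high intensity against control, 0.71 and 0.73 for low intensity against control, -0.25 and -0.25 for high against low intensity, 0.76 and 0.76 for static array against control, and -0.43 and -0.43 for the interaction. Leaving out each library gave medians of -0.17 to -0.06, -0.17 to -0.10, -0.06 to 0.01, -0.12 to -0.04, 0.09 to 0.21 and -0.03 to 0.10 for actuation, for high and for low intensity over control, for high over low intensity, for the static array over control and for the interaction.

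Signs turned for Ndufa1 in the interaction after thinning (0.0503), and at high intensity against control for Atp5h (0.1772 and 0.1775) and Cox7b (0.3844 and 0.3863) on log2(TPM + 1) and log2(TPM + 0.1). The last 2 genes stayed below the median of all genes on those scales (0.53 and 0.64), so relative to all genes their signs did not turn. On TPM as deposited, summed levels over control on the actuated array, static array, high and low intensity were 1.60, 1.55, 1.31 and 1.49 for complex I, 1.76, 1.62, 1.34 and 1.70 for II, 1.62, 1.57, 1.22 and 1.55 for III, 1.77, 1.65, 1.36 and 1.57 for IV, and 1.63, 1.55, 1.17 and 1.47 for V. With all 26 libraries they were 0.769 for complex I, 0.871 for II, 0.799 for IV and 0.843 for V at low intensity, and 0.812 for II and 0.797 for IV at high intensity. The shorter ETS word was in 23.0% of member windows. The cause of these differences was not tested.

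Groups of 3 to 5 libraries of unequal depth limit what single members can show, and the lowest isoforms rest on a few counts.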
